A study of Mus musculus with 30 samples.

Results

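The Ndrg family comprises the 4 mouse genes Ndrg1, Ndrg2, Ndrg3 and Ndrg4, found in the count table by their gene symbols. All 4 were among the 15587 genes of 52550 that passed the filter on low counts. Ndrg4 was chosen by its CPM (counts per 10⁶) in the exercised libraries, for being higher in the mutant than in the wild type group, and the other members were taken because they belong to the same family. The Ndrg4 values of the exercised libraries are therefore given as a description, with no test.

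The counts come from total RNA of mouse cardiac myocytes in 30 libraries, 5 in each of 6 groups. Wild type mice and Myh6-Cre:DspW/F mice, called heterozygotes here, were sampled at 3 months and at 6 months of age with regular activity, and at 6 months of age after endurance treadmill exercise, a state the design text describes as 3 months post exercise. In the heterozygotes Cre is driven by the promoter of Myh6, a gene of cardiac myocytes, so the desmoplakin allele is targeted in those cells. Whether wild type mice also carry Cre is not given in the labels. Nor do they state whether the 5 libraries of a group are separate animals. Every group held some libraries high in Xist and others high in Y-linked transcripts, so none came from 1 animal alone. At 3 months, for example, wild type 1 had 0.278 CPM of Xist and 140.2 CPM of Y-linked genes. Wild type 2 had 101.2 and 0.1175 CPM. The p-values measure only the spread between these libraries, part of which may be technical.

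NDRG proteins share an alpha/beta hydrolase fold but lack the residues a working hydrolase needs. NDRG1, the founding member, is known as a gene that rises with low oxygen and is held down by MYC-type factors, and it is phosphorylated by the kinases SGK1 and GSK3. NDRG2 is abundant in brain, heart and skeletal muscle, NDRG3 is known as an oxygen-regulated protein that binds lactate, and NDRG4 is expressed mainly in brain and heart.

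Total counts per library, in units of 10⁶, ranged from 11.2 to 23.7. Dsp, the targeted gene, had mean levels of 1079 CPM (wild type) and 765 CPM (heterozygotes) at 3 months, 784 and 626 CPM at 6 months, and 1561 and 848 CPM after exercise, with overlapping ranges in each pair. Mitochondrially encoded genes took 8.90% to 26.7% of the counts in regular-activity libraries and 20.9% to 46.9% in exercised ones. Values for spike-in controls were present in 3 rows of the 3-month libraries, in 11 to 18 rows of the regular-activity 6-month libraries and in 0 rows of the exercised ones. Age and exercise therefore cannot be told apart from any separate handling of these 3 sets, each of which holds both genotypes. The sets also differed in how many libraries were high in Xist (66.8 CPM or more, against at most 1.25 CPM elsewhere). At 3 months these were wild type 2, 3 and 4 and heterozygotes 1, 2 and 3. At 6 months they were wild type 2 and 5 and heterozygotes 2 and 4, and after exercise wild type 5 and heterozygote 4. The part of sex in the age and exercise values was not tested. All 16 ventricular myocyte markers were detected in every group. The 14 endothelial markers were detected as well, as were the 14 fibroblast markers, so the libraries also hold RNA of other cells of the heart.

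Ndrg4 (ENSMUSG00000036564) lies on chromosome 8 at 95676980 to 95715119, plus strand, in build GRCm38. GENCODE M21 gives it 11 transcripts, 6 of them coding. The RefSeq promoter table holds 4 starts for it, 3 for Ndrg2 and 2 for Ndrg3. It has no entry under the name Ndrg1. The counts pool all starts of a gene, so no value below belongs to a particular one. The sequences upstream of the outermost starts of Ndrg4 are shown, since it is the member chosen by its own level, from RefSeq on GRCm38.p6, plus strand, as chr8:95676724-95676973 and chr8:95702806-95703036. Capitals mark the letters TATAAA, found with their reverse complement at position -30 of the start at 95703056, and the first window holds none.
Ndrg4 upstream of 95676974: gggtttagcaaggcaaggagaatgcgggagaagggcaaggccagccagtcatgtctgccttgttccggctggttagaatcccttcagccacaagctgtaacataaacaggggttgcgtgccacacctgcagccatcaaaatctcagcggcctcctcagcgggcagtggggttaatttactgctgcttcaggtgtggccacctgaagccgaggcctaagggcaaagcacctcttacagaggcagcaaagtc
Ndrg4 upstream of 95703056: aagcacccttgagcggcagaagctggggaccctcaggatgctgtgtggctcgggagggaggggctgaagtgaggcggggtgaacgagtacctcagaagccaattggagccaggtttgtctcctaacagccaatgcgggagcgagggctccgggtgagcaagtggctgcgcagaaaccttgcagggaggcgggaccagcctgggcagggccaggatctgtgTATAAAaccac
TATAAA occurred on either strand in 12.4% of 32851 RefSeq promoters over the 250 bases before the start. One of the 3 Ndrg2 starts, at 51914004, has the reverse complement of these letters at position -29. The other motifs searched on both strands were CACGTG (6.02% of promoters), GGGCGG (32.7%), TGACGTCA (1.55%), and ACGTG or GCGTG (38.6%), the last of which overlaps CACGTG. The first Ndrg4 window holds GCGTG at position -136, and the second holds none of these 4. Of the Ndrg4 starts not shown, 95677763 has CACGTG at position -38. It also has 2 matches of GGGCGG and 4 of ACGTG or GCGTG. The start at 95678272 has 2 matches of GGGCGG. A match is a description of the letters only.

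The 4 members differed by orders of magnitude in level per exon length. Over the 30 libraries the median was 482 RPKM (CPM per kilobase of exon) for Ndrg2, 76.3 RPKM for Ndrg4, 2.42 RPKM for Ndrg1 and 1.65 RPKM for Ndrg3. Ndrg2 exceeded Ndrg4, and Ndrg4 exceeded both Ndrg1 and Ndrg3, in every library. Ndrg2 made up between 73.6% and 97.5% of the summed RPKM of the family, and Ndrg4 between 1.94% and 25.6%. By group the mean Ndrg4 share at 3 months was 9.02% ± 3.48 (SD, n = 5) for wild type and 18.8% ± 4.39 for heterozygotes. It averaged 12.6% ± 2.48 and 15.0% ± 2.16 at 6 months, and 4.92% ± 2.63 and 19.7% ± 4.36 after exercise.

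**Figure D1:**
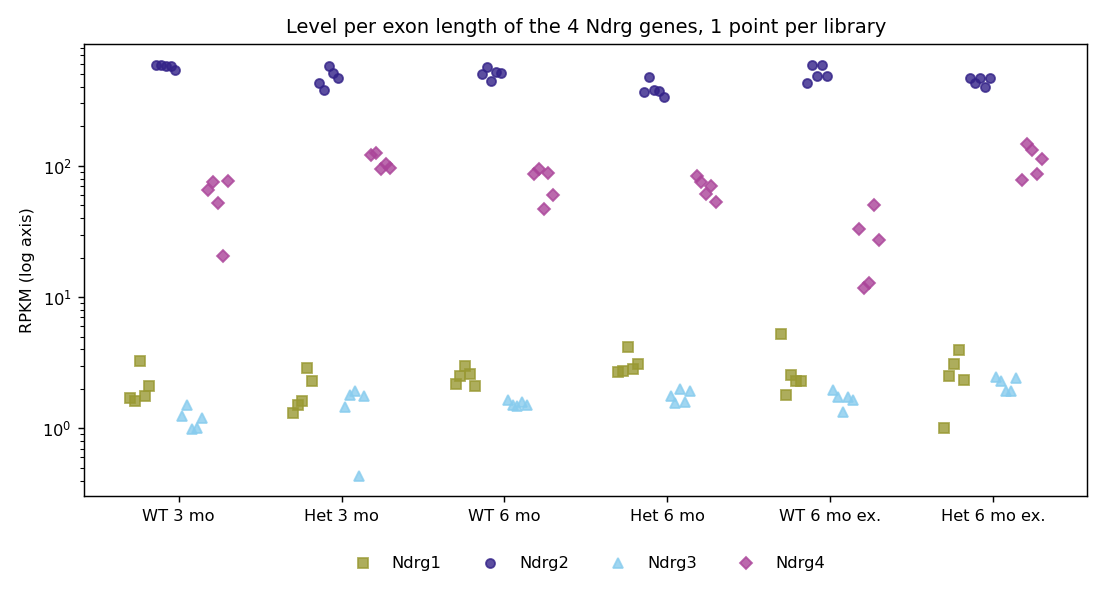
Level of the 4 Ndrg genes in RPKM (log axis) in each of the 30 libraries, by group; each point is a library. Ndrg2 lies between 337 and 593 RPKM, Ndrg4 between 11.6 and 148 RPKM, and Ndrg1 and Ndrg3 at or below 5.27 RPKM.

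The members also differed in how much they varied. Over the 20 regular-activity libraries, the highest library had 6.06 times the CPM of the lowest for Ndrg4, 4.56 times for Ndrg3, 3.20 times for Ndrg1 and 1.76 times for Ndrg2. Over all 30 libraries these ratios were 12.7, 5.65, 5.26 and 1.76, and both ends of the Ndrg4 ratio were exercised libraries on which it was chosen. The biological coefficient of variation around the group means, as fitted by edgeR over all 30 libraries, those that chose Ndrg4 included, was 36.1% for Ndrg4, 31.3% for Ndrg1, 23.0% for Ndrg3 and 13.7% for Ndrg2. For each member, groups next to each other in the order of mean CPM had overlapping ranges.

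In the 10 comparisons the members received 35 tests, and 0 of them passed an adjusted p of 0.05 in edgeR's quasi-likelihood test with Benjamini-Hochberg adjustment over all genes. At an unadjusted p under 0.05 there were 7. The DESeq2 Wald test also called 0 of the 35, and limma-voom with quality weights called 4, each named below. Among all tested genes, edgeR called 0.192% for genotype at 3 months, 0.135% at 6 months and 0.404% with exercise. The shares were 9.69% for exercise in wild type, 8.82% for exercise in heterozygotes and 13.1% for exercised heterozygotes against regular-activity wild type. They were 0.86% for age in wild type and 3.43% for age in heterozygotes, 0.0128% for the interaction of genotype and exercise, and 0% for that of genotype and age.

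**Figure D2:**
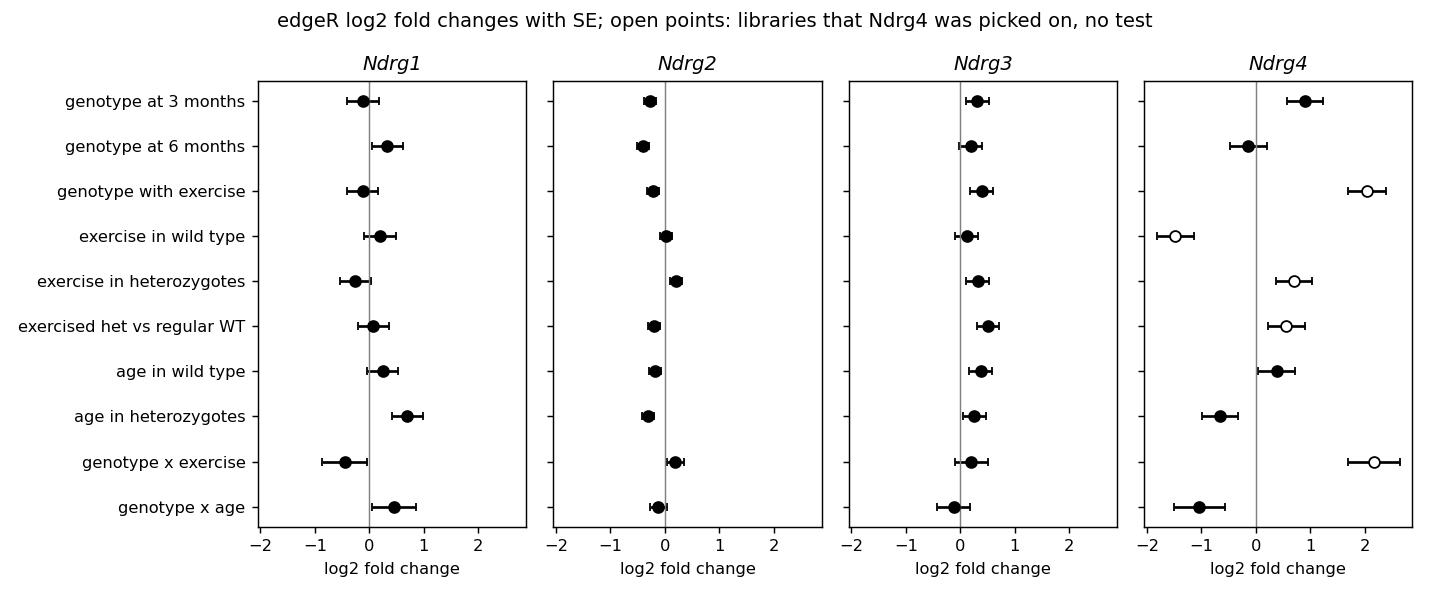
Log2 fold change (x axis) of each Ndrg gene in the 10 comparisons (rows), with bars for the standard error of the edgeR fit over 30 libraries; open points are Ndrg4 in comparisons that use the exercised libraries, which have no test. Ndrg4 spans from -1.48 to 2.18, and Ndrg2 stays between -0.40 and 0.21.

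Ndrg4 was higher in every exercised heterozygote library than in every exercised wild type library, which is the difference it was picked for. In exercised wild type the 5 libraries held 161, 57.0, 62.9, 247 and 134 CPM. In exercised heterozygotes they held 379.7, 725, 645, 423 and 558 CPM. The means were 132 ± 78.1 and 546 ± 146 CPM (SD, n = 5 each), a log2 difference of 2.04 (4.12-fold). Groups did not overlap in 1.84% of all tested genes in this comparison, a share from which nothing is read for a gene chosen here.

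At 6 months with regular activity, Ndrg4 was spread over much the same range in both genotypes. The wild type libraries held 426, 466, 229, 431 and 295 CPM, and the heterozygote libraries 411, 372, 298, 344 and 260.0 CPM. The means were 369.6 ± 102 and 337 ± 59.5 CPM. The log2 difference was -0.13 (95% interval -0.82 to 0.55, edgeR adjusted p = 0.957). In wild type, 4 of the 5 exercised libraries lay below all regular-activity ones, and the mean was 2.79-fold lower (log2 difference -1.48). In heterozygotes, 4 of the 5 exercised libraries lay above all regular-activity ones, and the mean was 1.62-fold higher (log2 difference 0.70). The exercise difference in heterozygotes exceeded that in wild type by 2.18 on the log2 scale. These 3 values share the libraries used to pick the gene, so they carry no test. Exercised heterozygotes stood 0.56 (log2) above regular-activity wild type, with 3 of 5 libraries above all of that group.

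The 3-month libraries were not used to pick Ndrg4. The wild type libraries held 319.7, 369, 254, 101 and 375 CPM, and the heterozygote libraries 598, 612, 463, 507 and 471 CPM. All 5 heterozygote libraries lay above all 5 wild type ones. The groups of this comparison did not overlap, in either direction, in 1.4% of all tested genes. The means were 284 ± 113 and 530.3 ± 70.3 CPM, and the log2 difference was 0.90 (SE 0.34, 95% interval 0.21 to 1.59). It did not pass the test over all genes (edgeR adjusted p = 0.292, unadjusted p = 0.0124). Without the lowest library, wild type 4, the difference was 0.69. That library also held both Xist and Y-linked transcripts.

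From 3 to 6 months the Ndrg4 difference had opposite signs in the genotypes. In heterozygotes every 6-month library lay below every 3-month library. Groups did not overlap, in either direction, in 7.24% of all tested genes of this comparison. The log2 difference was -0.65 (SE 0.33, edgeR adjusted p = 0.282), and a fit of these groups alone gave -0.63 with an adjusted p of 0.0121. That fit called 657 of 14131 genes. In wild type the log2 difference was 0.38 (SE 0.33, edgeR adjusted p = 0.699). The interaction of genotype and age was -1.04 (SE 0.47, edgeR adjusted p = 0.601, unadjusted p = 0.0373).

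**Figure D3:**
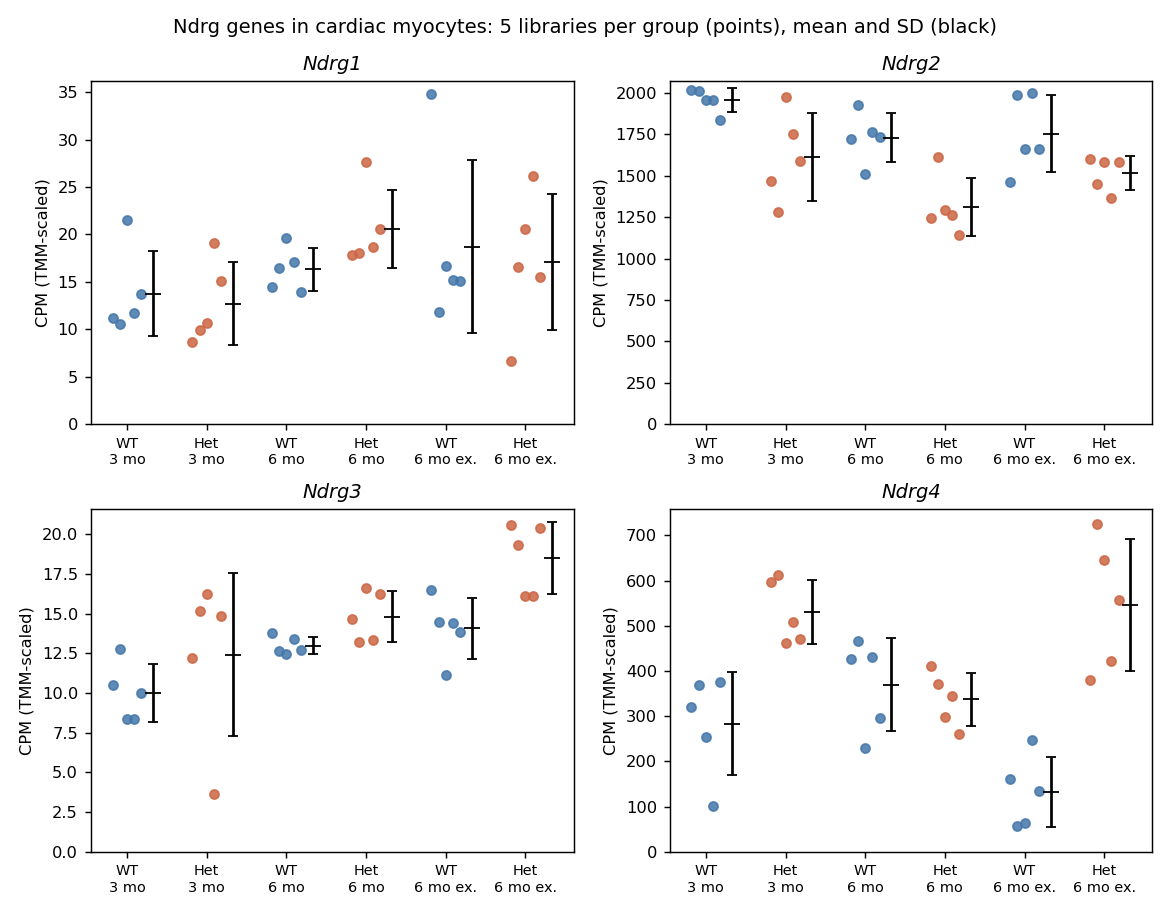
CPM of each Ndrg gene by group, 5 libraries per group as points, with the mean and SD in black; the y axes start at 0 and differ between panels. Ndrg4 has its lowest group mean in exercised wild type (132 CPM), whose libraries (57.0 to 247 CPM) overlap those of other groups, and Ndrg2 shows a lower mean in heterozygotes in each pair.

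Other genes near Ndrg4 and markers of other cells were read beside it. Setd6, which encodes a lysine methyltransferase and begins 762 bases beyond the end of Ndrg4 on the same strand, had a mean of 8.85 CPM in exercised wild type and of 7.31 CPM in exercised heterozygotes. Its log2 difference was -0.28 (SE 0.16, edgeR adjusted p = 0.622). Because NDRG4 is known from nerve and atrial tissue, markers of those cells were summed in each library. The 19 neuronal markers summed to 12.7 to 19.9 CPM in exercised wild type and 11.9 to 51.6 CPM in exercised heterozygotes. Chat, Slc18a3, Snap25, Syt1 and Th were at 0 in exercised wild type, and Chat, Slc18a3 and Nefh in exercised heterozygotes. These sums do not show which cells hold Ndrg4, and the part of neurons was not tested. Of the 4 neuronal markers that were tested, 0 passed in edgeR between the exercised genotypes (2 at an unadjusted p under 0.05). The DESeq2 Wald test and limma-voom each called 1. With exercise in heterozygotes, 2 of the 4 were higher and 2 lower. There edgeR called 1, Uchl1 (log2 difference 1.45, adjusted p = 0.0234), and 8.82% of all tested genes. The 14 Schwann and glial markers summed to 19.6 to 36.7 and 22.4 to 38.6 CPM.

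The 12 atrial myocyte markers summed to 814 to 1122 CPM in exercised wild type and 855 to 2726 CPM in exercised heterozygotes. Of the 11 that were tested, 10 were higher in exercised heterozygotes and 0 passed the test in edgeR (3 at an unadjusted p under 0.05, with 1 called by the DESeq2 Wald test and 0 by limma-voom). At 3 months, atrial sums ranged from 850.2 to 1975 CPM in wild type and from 797 to 3416 CPM in heterozygotes. The 13 conduction system markers summed to 77.6 to 118 CPM in exercised wild type and 103 to 140.1 CPM in exercised heterozygotes. In exercised heterozygotes 1 to 5, the atrial sums were 1416, 873, 855, 2726 and 1551 CPM. Ndrg4 in the same order stood at 379.7, 725, 645, 423 and 558 CPM. Heterozygote 4 also had the highest neuronal sum of these. Its fibroblast (1295 CPM), macrophage (134.3 CPM) and pericyte and smooth muscle (7628 CPM) sums were highest too. So were its endothelial, conduction system, Schwann and glial, and adipocyte sums. Its ventricular myocyte sum was the lowest (69430 CPM), and its epicardial and mesothelial sum (24.42 CPM) was not the highest. The part of these cells in the Ndrg4 difference was not tested. In bulk RNA, a change in the number of cells of a type and a change in RNA per cell cannot be told apart.

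Ndrg2 (ENSMUSG00000004558, chromosome 14, 51905271 to 51914158, minus strand) was the most abundant member and was lower in heterozygotes in each of the 3 settings, without passing the test in any. At 3 months the wild type libraries held 2015, 2010.0, 1959, 1958 and 1836 CPM and the heterozygote libraries 1468, 1282, 1976, 1752 and 1592 CPM. Only heterozygote 3 reached the wild type range. The means were 1956 ± 72.0 and 1614 ± 266 CPM, and the log2 difference was -0.28 (SE 0.11, 95% interval -0.50 to -0.05, edgeR adjusted p = 0.325).

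At 6 months the wild type libraries held 1722, 1926, 1511, 1762 and 1732 CPM of Ndrg2 and the heterozygote libraries 1245, 1611, 1293, 1263 and 1144 CPM. Here 4 of the 5 heterozygote libraries lay below all wild type ones. The means were 1731 ± 148 and 1311 ± 177 CPM. The log2 difference was -0.40 (SE 0.11, edgeR adjusted p = 0.199, unadjusted p = 0.000943), and limma-voom called it (-0.42, adjusted p = 0.0120). In this comparison limma-voom called 483 of 15587 genes. After exercise the wild type libraries held 1461, 1991, 1661, 1999 and 1662 CPM and the heterozygote libraries 1601, 1450, 1581, 1364 and 1585 CPM. These groups overlapped, with means of 1755 ± 234 and 1516 ± 104 CPM and a log2 difference of -0.21 (SE 0.11, edgeR adjusted p = 0.553).

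Exercise left Ndrg2 at a log2 difference of 0.02 for wild type mice (95% interval -0.20 to 0.24, edgeR adjusted p = 0.951) and 0.21 in heterozygotes (-0.01 to 0.43, edgeR adjusted p = 0.265). Exercised heterozygotes differed from regular-activity wild type by -0.19 (SE 0.11, edgeR adjusted p = 0.288). From 3 to 6 months the log2 difference was -0.18 for wild type (edgeR adjusted p = 0.545) and -0.30 for heterozygotes (SE 0.11, edgeR adjusted p = 0.117). The value for heterozygotes was called without heterozygote 2 of the 6-month group (-0.38, adjusted p = 0.0439), and also without heterozygotes 1 and 2 of the 3-month group, whose share of small RNA was high (-0.43, adjusted p = 0.0314). The latter removal was chosen after seeing the data. These fits called 668 of 15946 and 797 of 16439 genes for age in heterozygotes. Neither interaction passed the test, with 0.19 for genotype and exercise (edgeR adjusted p = 0.999) and -0.12 for genotype and age (edgeR adjusted p = 0.876).

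Averaged over the 3 settings, the Ndrg2 difference between genotypes was -0.30 (SE 0.06) and passed the test (edgeR adjusted p = 0.00982), as did 2.04% of all tested genes. This contrast was added after seeing that Ndrg2 was lower in each setting, so its p is not independent of that choice. It passed in all 40 alternatives run, with an adjusted p of at most 0.0441. These alternatives use the same libraries and follow the same choice, so they are no independent support. The same contrast was 0.30 for Ndrg3 (edgeR adjusted p = 0.221), which passed without heterozygote 4 of the 3-month group (0.38, adjusted p = 0.00651). In that fit 325 of 15929 genes passed. The contrast was 0.03 for Ndrg1 (edgeR adjusted p = 0.963) and, with no test, 0.94 for Ndrg4.

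Markers of myocytes and of other cells were read beside Ndrg2. The 16 ventricular myocyte markers summed to 102400 to 114000 CPM in wild type and 87320 to 113900 CPM in heterozygotes at 3 months, 79870 to 97130 and 70570 to 91600 CPM at 6 months, and 74920 to 104100 and 69430 to 96410 CPM after exercise. At 6 months 15 of the 16 were lower in heterozygotes, with a median log2 difference of -0.20 against -0.0035 over all tested genes, and 0 passed the edgeR test (2 at an unadjusted p under 0.05, with 1 called by the DESeq2 Wald test and 2 by limma-voom). In the same comparison all 10 tested macrophage markers were higher, with a median of 1.36, of which edgeR called 0 (8 at an unadjusted p under 0.05), the DESeq2 Wald test 0 and limma-voom 7. Of the 14 fibroblast markers 13 were higher, with a median of 0.73, of which edgeR called 0 (5 at an unadjusted p under 0.05), the DESeq2 Wald test 1 and limma-voom 6. At 3 months 12 of the 16 ventricular myocyte markers were lower in heterozygotes (median -0.12). So were 8 of the 10 macrophage markers (median -0.20) and 13 of the 14 fibroblast markers (median -0.28). After exercise 12 of the 16 ventricular myocyte markers were lower (median -0.17), while 9 macrophage and 13 fibroblast markers were higher. The genes closest to Ndrg2 by Pearson correlation of log2 CPM included Acot7, an acyl-CoA thioesterase (r = 0.88). With the group means subtracted they included Acaa1a, a peroxisomal thiolase (r = 0.80), Spg7, a mitochondrial protease (r = 0.79), and Myh6, the adult cardiac myosin heavy chain (r = 0.78). These values describe 30 libraries whose genes share depth and cell content. The part of myocyte, macrophage or fibroblast content in the Ndrg2 difference was not tested.

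**Figure D4:**
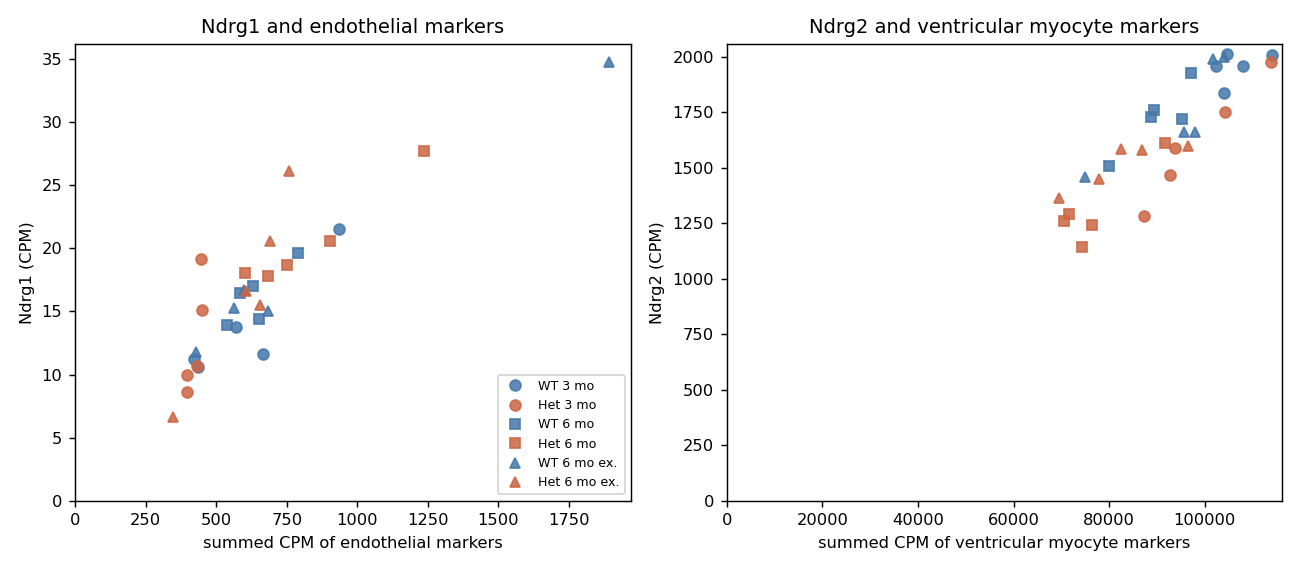
Left, CPM of Ndrg1 against the summed CPM of 14 endothelial markers; right, CPM of Ndrg2 against the summed CPM of 16 ventricular myocyte markers; each point is a library, blue for wild type and red for heterozygotes. The library with the highest endothelial sum (1892 CPM) has the highest Ndrg1 (34.8 CPM), and the one with the lowest (346 CPM) has the lowest (6.61 CPM).

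Ndrg1 (ENSMUSG00000005125, chromosome 15, 66929318 to 66969640, minus strand) varied more among libraries of a group than between groups. At 3 months the wild type libraries held 11.2, 10.6, 21.5, 11.7 and 13.8 CPM and the heterozygote libraries 8.65, 9.96, 10.7, 19.1 and 15.1 CPM. At 6 months these were 14.4, 16.5, 19.7, 17.0 and 14.0 CPM in wild type and 17.8, 18.1, 27.7, 18.7 and 20.6 CPM in heterozygotes. After exercise they were 34.8, 11.8, 16.7, 15.2 and 15.0 CPM in wild type and 6.61, 16.6, 20.6, 26.1 and 15.5 CPM in heterozygotes. The groups of each pair overlapped, and exercised wild type 1 and 6-month heterozygote 3 stood well above the rest of their groups.

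The genotype differences of Ndrg1 were -0.12 at 3 months (SE 0.29, edgeR adjusted p = 0.917), 0.33 at 6 months (SE 0.29, edgeR adjusted p = 0.811) and -0.13 with exercise (SE 0.29, edgeR adjusted p = 0.949). The first became 0.10 without wild type 3 of the 3-month group, and the last became 0.21 without exercised wild type 1 and 0.05 without exercised heterozygote 1. The exercise differences were 0.20 for wild type (edgeR adjusted p = 0.773) and -0.26 for heterozygotes (edgeR adjusted p = 0.671), and the first of these became -0.15 without exercised wild type 1. Between 3 and 6 months the difference was 0.25 in wild type (edgeR adjusted p = 0.793). In heterozygotes it was 0.70 (SE 0.29, 95% interval 0.10 to 1.29, edgeR adjusted p = 0.176), which limma-voom called (0.97, adjusted p = 0.00724). For age in heterozygotes limma-voom called 1418 of 15587 genes. Exercised heterozygotes differed from regular-activity wild type by 0.07 (edgeR adjusted p = 0.920). The interactions were -0.46 for genotype and exercise (edgeR adjusted p = 0.999) and 0.45 for genotype and age (edgeR adjusted p = 0.810).

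Markers of several other cell types were read beside Ndrg1. Between 3 and 6 months in heterozygotes all 14 endothelial markers were higher, with a median log2 difference of 1.04 against -0.02 over all tested genes, and 3 passed the edgeR test (Cdh5, Erg and Robo4). Their sums ranged from 396 to 448 CPM at 3 months and from 603 to 1237 CPM at 6 months. All 10 tested macrophage markers were higher too, with a median of 1.48 and 4 passing the edgeR test. Of the 14 fibroblast markers 13 were higher, with a median of 1.39 and 5 passing. In this comparison 3.43% of all tested genes passed. Between the exercised genotypes Ndrg1 differed by -0.13. The medians there were -0.40 for endothelial, 0.67 for macrophage and 0.33 for fibroblast markers. The genes closest to Ndrg1 over 30 libraries were 4931406P16Rik (r = 0.89), Eng, an endothelial co-receptor for TGF-beta ligands (r = 0.89), Ramp2 (r = 0.88), Cd34 (r = 0.86) and Lims2 (r = 0.86). With group means subtracted, Dgkh (r = 0.90), Ramp2 (r = 0.89), 4931406P16Rik (r = 0.89), Sh2d3c (r = 0.87) and Flt1, a VEGF receptor (r = 0.86), came first, where the highest 1% of genes began at r = 0.75. The part of these cells in the Ndrg1 values was not tested. Wisp1, 6117 bases from Ndrg1 on the opposite strand, encodes a matricellular protein.

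Ndrg3 (ENSMUSG00000027634, chromosome 2, 156927345 to 156992056, minus strand) had small positive differences for genotype, exercise and age that did not pass the edgeR test. At 3 months the wild type libraries held 10.5, 12.8, 8.36, 8.39 and 10.03 CPM and the heterozygote libraries 12.2, 15.1, 16.3, 3.65 and 14.8 CPM. Heterozygote 4 had 53 counts and lay below all other libraries. Its removal raised the log2 difference from 0.31 (SE 0.21, edgeR adjusted p = 0.614) to 0.55 (adjusted p = 0.0663).

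At 6 months Ndrg3 stood at 13.8, 12.6, 12.5, 13.4 and 12.7 CPM in wild type and at 14.7, 13.2, 16.6, 13.3 and 16.2 CPM in heterozygotes, a log2 difference of 0.19 (edgeR adjusted p = 0.876). After exercise it stood at 16.5, 14.5, 11.1, 14.4 and 13.8 CPM in wild type and at 20.6, 19.4, 16.1, 16.1 and 20.4 CPM in heterozygotes. Here 3 of the 5 heterozygote libraries lay above all wild type ones, and the log2 difference was 0.39 (SE 0.21, edgeR adjusted p = 0.565). Exercise gave 0.11 for wild type (edgeR adjusted p = 0.830) and 0.32 for heterozygotes (SE 0.21, edgeR adjusted p = 0.398), the latter called by limma-voom (0.37, adjusted p = 0.0494). For exercise in heterozygotes limma-voom called 2877 of 15587 genes.

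All 5 exercised heterozygote libraries lay above all 5 regular-activity wild type ones for Ndrg3. The 2 groups did not overlap in 12.2% of all tested genes in that comparison. The log2 difference was 0.51 (SE 0.21, 95% interval 0.08 to 0.93, edgeR adjusted p = 0.109). It was called by a fit of these groups alone (0.52, adjusted p = 0.0108) and by limma-voom (0.52, adjusted p = 0.00650). Those fits called 2044 of 14030 and 3075 of 15587 genes in this comparison, so nothing is read from these calls. Between 3 and 6 months Ndrg3 differed by 0.38 for wild type (edgeR adjusted p = 0.486) and 0.26 for heterozygotes (edgeR adjusted p = 0.542). The interactions were 0.21 for genotype and exercise (edgeR adjusted p = 0.999) and -0.12 for genotype and age (edgeR adjusted p = 0.942). The genes closest to Ndrg3 were led by Zfp84, a zinc finger gene (r = 0.86 over 30 libraries, 0.72 without heterozygote 4 of the 3-month group).

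The members did not follow each other across libraries. Pearson correlations of log2 CPM between pairs ran from -0.38 (Ndrg2 and Ndrg3) to 0.15 (Ndrg3 and Ndrg4) over 30 libraries, and from -0.33 to 0.17 with group means subtracted. The genes closest to Ndrg4 were Wisp1 (r = 0.68), Pirt, a regulator of sensory ion channels (r = 0.68), Gm37795 (r = 0.68), Gm43923 (r = 0.67) and Ccdc32 (r = 0.63). This ranking rests in part on the exercised libraries used to pick Ndrg4. With group means subtracted, 2610044O15Rik8 (r = 0.66), Fbxo8 (r = 0.66) and Acot4 (r = 0.65) came first, and Acot4 fell to 0.50 without wild type 4 of the 3-month group.

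The other genes of the pathway are given beside the share of all tested genes that passed between genotypes, which was 0.192% at 3 months, 0.135% at 6 months and 0.404% with exercise, so that a count near 0 is no result about these lists. Of 16 tested kinase and phosphatase genes that act on NDRG proteins or on their kinases, 0 passed the edgeR test in any of the 3 genotype comparisons, with at most 2 at an unadjusted p under 0.05 and 0 called by the DESeq2 Wald test or limma-voom. The edgeR count was likewise 0 for the 18 transcription and oxygen regulators, such as Hif1a, Mycn and Vhl, with at most 3 at an unadjusted p under 0.05 and 0 called by the other tools. It was 0 for 25 alpha/beta hydrolase-fold genes, with 4 or 5 at an unadjusted p under 0.05 and at most 1 called by each of the other tools. Among 26 hypoxia response genes edgeR called 0 at 3 months (2 at an unadjusted p under 0.05), 1 at 6 months and 1 with exercise. The DESeq2 Wald test called 0, 1 and 1, and limma-voom 0, 3 and 1. Pdk1, a kinase that restrains pyruvate oxidation, was lower in 6-month heterozygotes (log2 difference -0.58, SE 0.12, edgeR adjusted p = 0.0244). Hk1, a hexokinase, was higher in heterozygotes among the exercised mice (0.65, SE 0.11, edgeR adjusted p = 0.00471).

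For exercise, 9.69% of all tested genes passed in wild type and 8.82% in heterozygotes. Of the 16 kinase and phosphatase genes 1 and 2 passed, and of the 18 regulators 3 and 1, counts from which nothing is read. Exercise also went with the higher mitochondrial share given above, whose part was not tested. Gsk3b, a kinase of NDRG1, was higher after exercise in wild type (log2 difference 0.55, SE 0.10, edgeR adjusted p = 0.000401) and in heterozygotes (0.64, SE 0.10, edgeR adjusted p = 7.31e-05). Pdpk1, which activates SGK and AKT kinases, was higher in exercised heterozygotes (0.35, edgeR adjusted p = 0.00701). Arnt, the partner of HIF proteins, was likewise higher in wild type (0.38, edgeR adjusted p = 0.0186) and also in heterozygotes (0.41, edgeR adjusted p = 0.0138). Epas1, which encodes an oxygen-regulated HIF protein, was higher in wild type (0.51, edgeR adjusted p = 0.0212), and Tfeb, a regulator of lysosomal genes, was lower (-0.43, edgeR adjusted p = 0.0201). Of the 25 alpha/beta hydrolase-fold genes, 7 fell and 0 rose with exercise in wild type, where 5.05% of all tested genes fell, with a median log2 difference of -0.27 against 0.01 over all tested genes. Abhd17a, a depalmitoylase, had the smallest p of these (-0.88, edgeR adjusted p = 0.000455). In heterozygotes 2 fell and 1 rose, against 3.48% and 5.34% of all tested genes.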

How the data were processed

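The authors deposited raw gene counts of the 30 libraries in 1 table. Per the labels' protocols, ribosomal RNA was removed before strand-specific libraries were prepared for paired-end sequencing. The tools were Trim Galore, HISAT2 and featureCounts, on build mm10, per the submitters' processing notes; the annotation release and strand setting are not given in the sources used here.

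All 4 Ndrg genes were named in every comparison, with Dsp, the 5 genes closest to each by Pearson correlation (all libraries, and group means subtracted), annotated neighbours, and up to 2 list members with the smallest p. Not every gene that this rule takes is reported here. The members, lists and tests were chosen with earlier results of these data known. Spike-ins (23 of 52573 entries) were left out. Genes were filtered with filterByExpr, scaled with TMM and tested by quasi-likelihood in edgeR 4.0.16 (R 4.3.3, with limma 3.58.1) over all 30 libraries with 24 residual degrees of freedom, a method tested on simulated data. Log2 CPM used a prior count of 2, and RPKM used exon lengths of GENCODE M21. Fold changes are log2 values with their standard error (SE), and n is 5 libraries per group. Alternatives were a replicate block, DESeq2 1.42.0 (size factors and Wald test), all genes without a filter, abundant genes left out, own groups, limma-voom, a threshold of 0.01 and leaving out each library. Removals of groups of libraries and the averaged genotype contrast were chosen after seeing the data.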

Additional observations from a re-analysis of the deposited data

Results flagged for a closer look

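Of 24 sets of 5 libraries (each Ndrg gene in each group), 2 held a library whose gap to the nearest other library exceeded 0.71 of the set's range, and chance gives about 1 in 20. Both concerned Ndrg1. In 6-month regular-activity heterozygotes, replicate 3 had 27.7 CPM, and the gap was 0.72 of the range. In exercised wild type, replicate 1 had 34.8 CPM, and the gap was 0.79 of the range. Both libraries had the highest sums of their groups for endothelial (1237 and 1892 CPM), fibroblast (970.4 and 689.6 CPM), macrophage (108.8 and 62.3 CPM) and adipocyte markers (239.9 and 481.9 CPM). Exercised wild type 1 also had the highest mitochondrial share of all libraries (46.9%) and stood apart over all genes, with a chi-square per degree of freedom of 189 to 237 against the other libraries of its group and 16.4 to 42.3 among those. The part of these in the Ndrg1 values was not tested.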

How the results depend on the processing

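Under other fits than leaving out a library, 396 tested values kept their direction and their side of the threshold, 8 became called and 11 changed sign. Leaving out each library gave 494, 2 and 14. The first counts include the threshold of 0.01, which reuses the main fit, so its values could not change sign or become called. They also include removals of libraries that a comparison does not use. With 0 of the 35 member tests called in the main fit, these counts do not measure stability. The 65 and 90 untested Ndrg4 values use the libraries that chose the gene, so nothing is read from their direction or size under these fits. With no low-count filter, Ndrg2 with exercise in wild type was -0.0026. Fits of own groups gave 0.52 for Ndrg3 in exercised heterozygotes against regular-activity wild type and -0.63 for Ndrg4 with age in heterozygotes, both called. limma-voom called Ndrg2 for genotype at 6 months (-0.42), Ndrg3 with exercise in heterozygotes (0.37), in exercised heterozygotes against regular-activity wild type (0.52) and for averaged genotype (0.32), and Ndrg1 with age in heterozygotes (0.97). For averaged genotype it called 973 of 15587 genes. It reversed Ndrg1 for genotype with exercise (0.0194), exercise in wild type (-0.0501), exercised heterozygotes against regular-activity wild type (-0.0307) and averaged genotype (-0.0237). Without the 3 libraries holding Xist and Y-linked transcripts, the last 2 of these were -0.00045 and -0.0126. Without 2 3-month heterozygotes, Ndrg1 for genotype at 3 months was 0.12, and Ndrg2 with age in heterozygotes was called (-0.43). Without exercised wild type 1 and heterozygote 4, Ndrg1 was 0.0150 for genotype with exercise, -0.15 for exercise in wild type and -0.14 for exercised heterozygotes against regular-activity wild type. The cause was not tested.

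Leaving out 1 library at a time gave, for Ndrg1, -0.31 to 0.10 for genotype at 3 months, -0.33 to 0.21 with exercise, -0.15 to 0.33 for exercise in wild type, -0.14 to 0.25 for exercised heterozygotes against regular-activity wild type and -0.0402 to 0.149 averaged. Ndrg2 ranged from -0.0281 to 0.0779 for exercise in wild type and from -0.38 to -0.20 for age in heterozygotes. Ndrg3 ranged from -0.359 to 0.0197 for genotype and age and from 0.26 to 0.38 averaged.

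Replicate numbers did not pair the libraries (correlations of same-numbered libraries -0.25 to 0.16). With the replicate block, Ndrg2 for genotype at 6 months was -0.40 and no Ndrg call changed, while the genes called fell from 30 to 1 for genotype at 3 months, from 21 to 11 at 6 months and from 63 to 42 with exercise. The DESeq2 Wald test called 145, 56 and 200 in these comparisons, and limma-voom 36, 483 and 188. Ndrg1 and Ndrg3 rest on 53 to 501 counts per library, which limits their precision.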

Other observations

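Wisp1, a neighbour of Ndrg1 and the gene closest to Ndrg4 over the libraries, averaged 2.37 CPM in exercised wild type and 7.72 CPM in exercised heterozygotes. The log2 difference was 1.71 (SE 0.35). Its closeness to Ndrg4 (r = 0.68, 0.61 without exercised wild type 3) rests in part on the exercised libraries that chose Ndrg4, so this difference is given as a description, with no test.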
